A study of Mus musculus with 12 samples.

Results

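Transcript levels in cultured double-negative (DN) dendritic cells of mouse spleen were set against those in cultured CD4+ dendritic cells. DN cells lack both CD4 and CD8. Of the 12 arrays in the series, the 2 arrays of the cultured CD4- CD8- subset and the 2 of the cultured CD4+ subset were chosen by their titles, and all 12422 non-control probe sets were used. Both cultured groups came from cells sorted for high CD11c and then kept for 2 h at 37 °C in tissue culture medium. The same 2 subsets were also measured at isolation, with 2 arrays each of fresh DN and fresh CD4+ cells, and 4 arrays of fresh and cultured CD8+ cells completed the series. The labels name no strain, age, pooling or added stimulus, and they do not say whether the arrays numbered Expt #1 and Expt #2 came from separate animals, so the p-values measure only the spread between these arrays, which may be technical.

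Dendritic cells take up, process and present antigen to T cells. In mouse spleen the CD8-negative subsets, CD4+ and DN, are both known for presentation on MHC class II molecules, and CD8+ cells for cross-presentation on class I. Taking these cells out of the spleen and warming them in medium is known to start a maturation programme in which costimulatory molecules and inflammatory genes are induced.

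The deposited values are scaled intensities on a linear scale. Levels below are these intensities, a probe set counted as detected above a floor of 91.37, and differences are DN minus CD4+ on a generalised log2 scale that stays defined for values below 0. The 4 cultured arrays did not pair off by subset. Rank correlation over the 6159 tested probe sets was 0.881 between the DN arrays and 0.745 between the CD4+ arrays, against 0.785 to 0.914 between DN and CD4+ arrays, and the closest pair of all was DN replicate 2 with CD4+ replicate 2. Between the CD4+ arrays 36.0% of tested probe sets differed by more than 2-fold, against 14.7% between the DN arrays. Replicate 1 of cultured CD4+ cells stood apart, with a noise (root mean square of its values below 0) of 108, against 42.3 on CD4+ replicate 2 and 82.5 and 61.4 on the DN arrays. The DN arrays had Gapdh 3′/5′ ratios, a control for RNA integrity, of 1.34 and 1.02, against 1.97 on CD4+ replicate 1 and 0.925 on CD4+ replicate 2.

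The sort antigens were examined first. Cd4, the co-receptor used to separate the subsets, had intensities of 90.5 and -27.6 in cultured DN cells, against 271 and 112 in cultured CD4+ cells. Both DN arrays lay under the floor and both CD4+ arrays above it, which makes Cd4 at least 1.84-fold lower in DN cells (limma, adjusted p = 0.998), in the direction of the sort. At isolation the Cd4 intensities had been 82.7 and 77.6 in DN cells, against 617 and 613 in CD4+ cells (at least 6.37-fold lower in DN cells). Cd8a, the CD8 alpha chain, was under the floor on all 4 cultured arrays, at -17.9 and 31.3 in DN cells and -16.7 and -3.9 in CD4+ cells. Itgax, which encodes CD11c, was well detected at 1447.5 and 1337 in DN cells and 999 and 2374 in CD4+ cells, with the DN arrays inside the range of the CD4+ arrays.

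Of the 6159 probe sets tested, 0 (0%) were called higher or lower in cultured DN than in cultured CD4+ cells at an adjusted p under 0.05 (limma with Benjamini-Hochberg adjustment), and the smallest adjusted p was 0.374. At an unadjusted p under 0.05 there were 235 probe sets (3.82%) and of these 161 (2.61%) were higher and 74 (1.20%) lower in DN cells. Leaving out single arrays gave 199 calls without CD4+ replicate 2, where the noisier CD4+ array stands alone for its group, and 4 without DN replicate 2. The median standard error of a difference was 0.45 on the log2 scale, and 487 probe sets had a difference over 1 in size. Both DN arrays lay above both CD4+ arrays for 759 probe sets (12.3%) and below both for 582 (9.45%). Taken per gene, they lay above for 602 of 4735 genes (12.7%) and below for 424 (8.95%). Leaving out 1 of the 4 arrays moved the difference by over 1.5 times, or turned it, for 49 of 76 genes named here. The genes named here are therefore a description of the 4 arrays, and 0 of them passed the adjustment. In bulk samples of this kind, fewer cells of a type and less RNA per cell cannot be told apart.

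Among the genes with both DN arrays above both CD4+ arrays, Crip1, a small cysteine-rich LIM-domain protein, was the brightest of the 12 with the lowest p. Its intensities were 1783 and 1071 in cultured DN cells, against 434 and 189 in cultured CD4+ cells, a log2 difference of 2.26 ± 0.50 (SE, unadjusted p = 0.000826, adjusted p = 0.666). The order was the same at isolation, with 1409.5 and 563 in fresh DN cells and 313 and 185 in fresh CD4+ cells, and cultured CD8+ cells were higher than both, at 3798 and 2866.

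Cxcl9, an interferon-induced chemokine that attracts activated T cells through CXCR3, had 497 and 152 in cultured DN cells, against 70.2 and 69.6 in cultured CD4+ cells. The CD4+ arrays were both under the floor, so that the DN level was at least 2.88-fold higher (adjusted p = 0.783), and the 2 DN arrays differed from each other by more than the lower one differed from the CD4+ arrays. Cultured CD8+ cells carried far more Cxcl9 transcript, at 2671 and 2696.

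Several DN-higher genes rested on CD4+ values under the floor, some of them below 0. Psmd1, a subunit of the regulatory particle of the proteasome, had 196 and 162 in DN cells and -48.0 and -2.5 in CD4+ cells, at least 1.87-fold higher (unadjusted p = 0.000182, adjusted p = 0.374). Slc25a10, the dicarboxylate carrier of the inner mitochondrial membrane, had 127 and 111 in DN cells and -89.8 and -5.6 in CD4+ cells, at least 1.27-fold higher (adjusted p = 0.666). The bounds show how little of the fitted differences of 3.69 ± 0.67 and 3.55 ± 0.79 (SE) was measured above the floor. In the same way Sphk2, a sphingosine kinase, was at least 1.58-fold higher, Tbl2, a WD-repeat protein of the endoplasmic reticulum, at least 1.79-fold, Ptpro, a receptor-type tyrosine phosphatase, at least 1.77-fold, and Ppm1m, a protein phosphatase of the PP2C family, at least 1.75-fold.

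The remaining DN-higher genes of lowest p were detected on all 4 arrays. Baz2a, a subunit of a chromatin remodelling complex that silences ribosomal DNA, had 408 and 275 in DN cells and 124 and 159.9 in CD4+ cells, with a log2 difference of 1.22 ± 0.34 (SE). Fmc1, an assembly factor of the mitochondrial ATP synthase, had 391 and 403 in DN cells and 153 and 113 in CD4+ cells. Erp29, a chaperone of the endoplasmic reticulum, had 274 and 468.5 in DN cells and 138 and 165 in CD4+ cells. All 3 separated the subsets, yet the other tested probe set of Erp29 gave -0.20 on the log2 scale. The probe set of 2210010C04Rik, whose role is not known here, read 549 and 398.5 in DN cells and 101 and 196 in CD4+ cells, while another probe set of that gene gave -0.16. The probe sets of Fmc1 and 2210010C04Rik carry the array's mark for possible signal from related transcripts.

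On the other side, Apoe, the apolipoprotein that carries lipids and is a strong product of macrophages, had the lowest p among the genes with both DN arrays below both CD4+ arrays. Its intensities were -49.5 and 125.5 in cultured DN cells, against 681 and 634 in cultured CD4+ cells, and 1 of the 2 DN arrays was above the floor. The log2 difference was -4.27 ± 0.87 (SE, unadjusted p = 0.00044, adjusted p = 0.542). It came to -2.34 without DN replicate 1 and -6.20 without DN replicate 2, and to -2.62 with values under the floor set to it. Apoe was also lower in DN cells at isolation, at 461 and 740.3 against 1645 and 1374 in CD4+ cells, and its decrease over the culture was called in DN cells (adjusted p = 0.0149) and not in CD4+ cells (adjusted p = 0.337). The difference between those responses was -2.91 ± 1.23 (SE, unadjusted p = 0.0366, adjusted p = 0.999), so it did not pass either.

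Spic, Mmp12 and Nampt stood among the DN-lower genes that were bright in CD4+ cells. Spic, an Ets-family transcription factor that directs red pulp macrophages, had 252 and 270.3 in DN cells, against 601 and 1247 in CD4+ cells, a log2 difference of -1.72 ± 0.54 (SE, adjusted p = 0.998). Mmp12, the macrophage elastase, had 758 and 1179 in DN cells and 2349.7 and 3448 in CD4+ cells, a difference of -1.59 ± 0.41 (SE). Nampt, the enzyme that makes nicotinamide mononucleotide for NAD salvage, had 473 and 476 in DN cells and 921 and 1288.5 in CD4+ cells, a difference of -1.20 ± 0.37 (SE). In all 3 both CD4+ arrays were higher than both DN arrays, by more than the DN arrays differed from each other. Spic had been near 0 in both subsets at isolation, at 13.3 and 28.2 in DN cells and 22.6 and 23.3 in CD4+ cells, all under the floor. Over the culture it rose at least 2.72-fold in DN cells (adjusted p = 0.00804) and at least 8.96-fold in CD4+ cells (adjusted p = 0.000526).

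Ldhb, a subunit of lactate dehydrogenase, had 98.3 and 104 in DN cells and 361.5 and 187 in CD4+ cells, a log2 difference of -1.31 ± 0.39 (SE). Dync1i1, an intermediate chain of cytoplasmic dynein, had 98.2 and 119 in DN cells and 305 and 396 in CD4+ cells, a difference of -1.63 ± 0.36 (SE). For 5 further genes both DN arrays were under the floor, and the bounds were at least 2.07-fold lower for 1700037H04Rik, 1.85-fold for Ddhd1, a phospholipase of phosphatidic acid, 1.32-fold for Saysd1, 1.12-fold for Dhodh, an enzyme of pyrimidine synthesis, and 1.12-fold for Twist2, a helix-loop-helix repressor. Twist2 was above the floor on the 2 cultured CD4+ arrays and on no other array, so it passed the filter on low values only through the group where it was high. The probe sets of Mmp12, Dync1i1 and Dhodh carry a mark for less specific design.

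**Figure D1:**
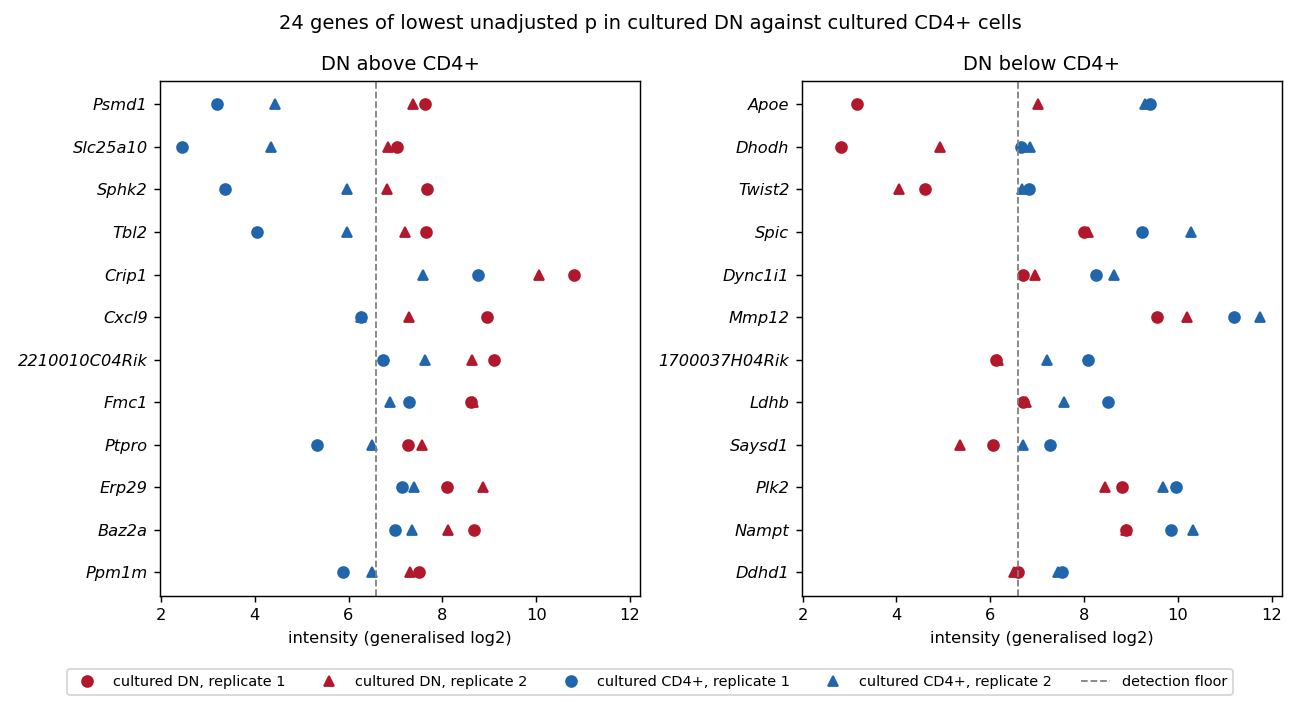
Intensity on the generalised log2 scale of the 24 genes of lowest unadjusted p whose DN arrays (red) both lie above or both below the CD4+ arrays (blue), with circles for replicate 1, triangles for replicate 2 and a dashed line at the detection floor. Crip1, Apoe, Spic, Mmp12, Plk2 and Nampt are bright in at least 1 subset, while the CD4+ points of Psmd1, Slc25a10, Sphk2 and Tbl2 lie left of the floor.

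Plk2, a polo-like kinase induced by stress and growth signals, also belonged to the DN-lower genes, and it had lain the other way before culture. It had 449 and 346 in cultured DN cells, against 1003 and 827 in cultured CD4+ cells, a log2 difference of -1.21 ± 0.29 (SE, unadjusted p = 0.00167, adjusted p = 0.783). At isolation it had 219.5 and 271 in DN cells, against 138 and 167 in CD4+ cells. Over the culture Plk2 rose in CD4+ cells by 2.55 ± 0.29 on the log2 scale (adjusted p = 0.000403), while the value in DN cells was 0.68 ± 0.29 (adjusted p = 0.163). The test of the difference between the cultured and the fresh comparison gave -1.87 ± 0.41 (SE, unadjusted p = 0.00086, adjusted p = 0.999). The promoter of Plk2 is shown because it holds the cyclic AMP response element, TGACGTCA, which is bound by CREB-family factors. It lies at chr13:110394794-110395093 of GRCm38.p6 on the plus strand, 250 bases before to 50 after the start of the gene, and is printed 5′ to 3′ from RefSeq with the element in capitals.
Plk2: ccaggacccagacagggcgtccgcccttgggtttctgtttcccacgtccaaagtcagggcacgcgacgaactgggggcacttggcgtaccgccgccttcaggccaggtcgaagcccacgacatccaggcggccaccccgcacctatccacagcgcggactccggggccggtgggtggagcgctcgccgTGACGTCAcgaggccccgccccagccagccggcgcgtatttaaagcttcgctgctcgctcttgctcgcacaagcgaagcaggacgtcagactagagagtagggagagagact
The element, searched on both strands (it reads the same on each), occurs in 1.79% of the 32851 promoters of this length. A match describes the letters and is not evidence of binding.

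The interferon-induced genes gave the lowest median of the functional lists, and they also split the DN replicates. Over the 24 tested members the median log2 difference was -0.61, against 0.03 over all 4735 genes tested, with 0 called and with both DN arrays above both CD4+ arrays for 2 members (8.33%) and below for 4 (16.7%), where 12.7% and 8.95% of all genes did so. Rsad2, the antiviral protein viperin, had 1333 and 234 in cultured DN cells, against 3561.5 and 1505 in cultured CD4+ cells, a log2 difference of -2.04 ± 0.73 (SE, unadjusted p = 0.017, adjusted p = 0.998). Ifit1, which binds viral RNA ends, had 813 and 163 in DN cells and 1769 and 826.5 in CD4+ cells, a difference of -1.72 ± 0.64 (SE, adjusted p = 0.998). For both genes the DN arrays lay below the CD4+ arrays, with DN replicate 1 close to CD4+ replicate 2 and DN replicate 2 far under it. Without DN replicate 2 the differences were -0.80 for Rsad2 and -0.57 for Ifit1, and without CD4+ replicate 1 they were -1.42 and -1.17.

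That spread ran through the list. DN replicate 1 was above DN replicate 2 for 23 of the 24 members, by a median of 2.02 on the log2 scale, whereas CD4+ replicate 1 was above CD4+ replicate 2 for 12, with a median of 0.02. Over all 4735 genes tested, replicate 1 was above replicate 2 for 2274 in DN cells and 2352 in CD4+ cells. Examples picked after their values were seen are Ifit2, at 914 and 78.9 in DN cells and 1511 and 1035 in CD4+ cells, and Cxcl10, a chemokine induced by interferon, at 1665 and 201 in DN cells and 1503 and 883 in CD4+ cells. Isg15, a ubiquitin-like modifier chosen in the same way, had 5327 and 1142 in DN cells and 5581.5 and 2589.6 in CD4+ cells. Against the mean of the 4 arrays, the list's median was 0.73 on DN replicate 1 and -1.36 on DN replicate 2, and 0.34 and 0.30 on the CD4+ arrays. The low median of the list thus stands on DN replicate 2. Taken within the replicate numbers of the labels, the median difference was 0.40 for number 1 and -1.50 for number 2. Ifitm1, a membrane protein that restricts virus entry, went the other way, with 1661 and 1993 in DN cells and 1099 and 1174.5 in CD4+ cells, a difference of 0.68 ± 0.33 (SE).

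Interferon-induced genes are known to be switched on through the interferon-stimulated response element, to which the STAT-containing factor ISGF3 binds. The promoters of Ifit1 and Rsad2 are shown with matches to the core of that element, GAAANNGAAA or its reverse complement TTTCNNTTTC, in capitals, each from 250 bases before to 50 after the start and 5′ to 3′ on the gene's strand. Ifit1 lies at chr19:34640639-34640938 (plus strand) and Rsad2 at chr12:26456403-26456702 (minus strand) of GRCm38.p6, from RefSeq.
Ifit1: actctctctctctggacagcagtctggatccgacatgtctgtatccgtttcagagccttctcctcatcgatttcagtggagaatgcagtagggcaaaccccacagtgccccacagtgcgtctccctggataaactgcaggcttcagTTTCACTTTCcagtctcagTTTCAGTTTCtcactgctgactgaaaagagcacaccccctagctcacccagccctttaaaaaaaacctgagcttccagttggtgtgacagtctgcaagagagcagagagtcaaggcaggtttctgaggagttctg
Rsad2: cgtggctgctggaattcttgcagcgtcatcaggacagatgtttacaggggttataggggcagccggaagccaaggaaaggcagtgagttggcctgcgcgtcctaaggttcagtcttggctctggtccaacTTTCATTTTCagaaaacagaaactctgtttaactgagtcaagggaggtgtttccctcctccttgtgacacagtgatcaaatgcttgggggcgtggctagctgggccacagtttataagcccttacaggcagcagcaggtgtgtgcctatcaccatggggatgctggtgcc
The core occurred in 2 places in Ifit1 and 1 in Rsad2. It also occurred in 1 place in the Plk2 promoter printed above, where it was left in lower case. Of the tested members of the list, 20 genes had 26 promoters in the table, and 12 of these (46.2%) held the core, against 3.44% of all 32851 promoters. The list was put together from known interferon targets, and the share is a description of it, not of a difference between DN and CD4+ cells.

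Chemokines and cytokines differed between replicates more than between subsets. Of the 12 tested chemokines, 11 were higher on replicate 1 than on replicate 2 in both subsets, by a median of 1.46 on the log2 scale in DN cells and 1.27 in CD4+ cells, and for cytokines 9 of 12 were. Over all genes tested, 1393 of 4735 were higher on replicate 1 in both subsets. The median difference between the subsets was -0.33 for chemokines and -0.08 for cytokines. Each turned with the CD4+ array used: the chemokine median was -0.86 against CD4+ replicate 1 and 0.42 against CD4+ replicate 2, and the cytokine median -0.54 and 0.25. Ccl3, an inflammatory chemokine, had 1592 and 296 in DN cells and 2603 and 1126 in CD4+ cells, a difference of -1.31 ± 0.79 (SE). Tnf, the inflammatory cytokine, had 937 and 133.5 in DN cells and 1316 and 525 in CD4+ cells, and Il1rn, the interleukin-1 receptor antagonist, had 1330.4 and 467 in DN cells and 1787 and 817 in CD4+ cells. The groups overlapped for all 3. Without DN replicate 2 the difference was -0.11 for Ccl3, and the sign turned for Tnf (0.17) and Il1rn (0.14). Among chemokines only Cxcl9 separated the subsets, and among cytokines 0 of 12 did, where 12.7% and 8.95% of all genes did so upwards and downwards. Cxcr3, the receptor of Cxcl9, had 165 and 118.5 in DN cells and 101 and 105 in CD4+ cells.

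Of the 16 tested genes of costimulation and maturation, 8 rose over the culture in DN cells and 10 in CD4+ cells, with 0 called lower in either (191 and 337 of all 4735 genes tested were called higher in these responses). Between the cultured subsets their median difference was 0.06 (-0.27 against CD4+ replicate 1 and 0.30 against CD4+ replicate 2). Both DN arrays lay above for 2 members (12.5%) and below for 1 (6.25%), where 12.7% and 8.95% of all genes lay so. Cd83, a surface marker of mature dendritic cells, had 6648 and 7033 in DN cells and 10929 and 7792 in CD4+ cells, a difference of -0.43 ± 0.25 (SE, adjusted p = 0.998). Cd86, a ligand of CD28, had 1476 and 757 in DN cells and 1223 and 2569.6 in CD4+ cells, overlapping, and its other tested probe set had the opposite sign (0.82). Il1r2, the decoy receptor for interleukin 1 and a gene of the cytokine receptor list, was bright in both subsets, at 5048 and 4642.5 in DN cells and 6956 and 6613.5 in CD4+ cells. It had risen in both subsets, by 4.39 ± 0.42 on the log2 scale in DN cells (adjusted p = 0.000252) and 5.55 ± 0.42 in CD4+ cells (adjusted p = 3.55e-05).

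Of 18 tested NF-kB targets and feedback genes, 5 (27.8%) had both DN arrays above and 0 below, with a median of 0.11, where 12.7% and 8.95% of all genes did so. Bcl3, an atypical IkB protein, had 392 and 325 in DN cells and 232 and 167 in CD4+ cells, a difference of 0.84 ± 0.32 (SE, unadjusted p = 0.0246). Tnip1, an inhibitor of NF-kB signalling that binds A20, had 1109 and 709.7 in DN cells and 708 and 441.5 in CD4+ cells, and DN replicate 2 was level with CD4+ replicate 1.

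Antigen presentation gave no common direction. The MHC class II list had a median of -0.14, with 2 of 18 members above (11.1%) and 3 below (16.7%) in both DN arrays, and the class I list 0.07, with 3 (23.1%) and 2 (15.4%) of 13, where 12.7% and 8.95% of all genes lay so. The class II median was 0.16 against CD4+ replicate 1 and -0.17 against CD4+ replicate 2, and the class I median -0.04 and 0.08. H2-DMa, a chain of the editor that loads peptide onto class II, had 1423 and 1808 in DN cells and 608 and 1121 in CD4+ cells, a difference of 0.96 ± 0.39 (SE, unadjusted p = 0.0335). Before culture the order was the reverse, at 3819 and 2138 in DN cells and 4755 and 4097 in CD4+ cells. Ctsl, a lysosomal protease, was dim, at 102 and 58.6 in DN cells and 123 and 188 in CD4+ cells. In the class I pathway, Psme1, an activator subunit of the immunoproteasome, had 1693 and 1917 in DN cells and 972 and 1536 in CD4+ cells, and Tap1, a subunit of the peptide transporter, had 2802 and 2075 in DN cells and 1922 and 1733.5 in CD4+ cells.

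For oxidative phosphorylation 11 of 46 members (23.9%) had both DN arrays above and 0 below, where 12.7% and 8.95% of all genes did so. The median was 0.33 on the log2 scale with 0 called, and it was 0.51 against CD4+ replicate 1 and 0.15 against CD4+ replicate 2. Atp5pb, a stalk subunit of ATP synthase, had 229 and 216 in DN cells and 96.4 and 121 in CD4+ cells (difference 1.00 ± 0.35, SE, unadjusted p = 0.0157), and Sdhb, the iron-sulfur subunit of succinate dehydrogenase, had 513 and 672 in DN cells and 287 and 449 in CD4+ cells. For the cell cycle list, which holds genes of replication and mitosis, 11 of 36 (30.6%) were above and 1 below, with a median of 0.28 (0.32 against CD4+ replicate 1 and 0.18 against CD4+ replicate 2). Mcm5, a subunit of the replicative helicase, had 373 and 526 in DN cells and 129.5 and 290.4 in CD4+ cells, a difference of 1.17 ± 0.43 (SE, unadjusted p = 0.0201). On the other tested probe set of Mcm5 the arrays overlapped, with a difference of 0.005. Mcm2, of the same helicase, had 98.8 and 102 in DN cells and -0.7 and 63.2 in CD4+ cells. Both CD4+ values were under the floor, which makes Mcm2 at least 1.09-fold higher in DN cells. Its difference was 1.40, and 0.58 without CD4+ replicate 1.

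Of 10 cholesterol synthesis genes 2 (20.0%) were above and 0 below in both DN arrays, where 12.7% and 8.95% of all genes were. Their median was 0.36. Against CD4+ replicate 1 alone it was 0.73, and against CD4+ replicate 2 alone it was -0.03. Hmgcs1, which makes HMG-CoA, had 946 and 899.6 in DN cells and 417 and 659 in CD4+ cells, and Fdft1, squalene synthase, 241 and 299 in DN cells and 133 and 225 in CD4+ cells. Of 18 ribosomal protein genes 6 (33.3%) were above and 1 (5.56%) below, against the same shares of all genes. Their median was 0.21 (0.27 against CD4+ replicate 1 and 0.08 against CD4+ replicate 2). Rpl13a had 430.0 and 392 in DN cells and 257.5 and 246 in CD4+ cells, and Rpl10a 3099.9 and 3673 in DN cells and 2062 and 2752 in CD4+ cells. Eef2, the elongation factor that moves the ribosome along, had 3310.0 and 4100.4 in DN cells and 938 and 2474 in CD4+ cells, a difference of 1.27 ± 0.48 (SE, unadjusted p = 0.0233). For each of Atp5pb, Sdhb, Mcm5, Hmgcs1, Fdft1, Rpl10a and Eef2 the lowest array was CD4+ replicate 1, the noisiest one. Without that array the differences kept their sign and were smaller, at 0.85 for Atp5pb, 0.38 for Sdhb, 0.60 for Mcm5, 0.48 for Hmgcs1, 0.25 for Fdft1, 0.29 for Rpl10a and 0.57 for Eef2, against 1.00, 0.71, 1.17, 0.81, 0.62, 0.50 and 1.27 with it. Measured against the mean of the 4 arrays, the median of oxidative phosphorylation was 0.00 and 0.36 on the DN arrays and -0.32 and -0.02 on the CD4+ arrays, and that of cholesterol synthesis 0.17 and 0.15 on the DN arrays and -0.59 and 0.08 on the CD4+ arrays.

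Of 21 heat shock and chaperone genes, 0 were above and 6 (28.6%) below in both DN arrays, where 12.7% and 8.95% of all genes were, and the other 15 overlapped. Their median was -0.22, with 0 called. Hspe1, the mitochondrial co-chaperonin, had 1298 and 1622 in DN cells and 1972 and 2105.5 in CD4+ cells, a difference of -0.49 ± 0.28 (SE, adjusted p = 0.998). Over the 26 immediate-early genes the median was -0.15, with -0.68 against CD4+ replicate 1 and 0.11 against CD4+ replicate 2, and Btg1, an inhibitor of proliferation, had 3808.5 and 3778.5 in DN cells and 6312 and 4515 in CD4+ cells. Glycolysis was near 0, at a median of 0.04 over 16 genes (0.15 against CD4+ replicate 1 and -0.24 against CD4+ replicate 2), and Pgk1, phosphoglycerate kinase, had 938 and 625 in DN cells and 215.5 and 795.5 in CD4+ cells, whose sign turned to -0.056 without CD4+ replicate 1.

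**Figure D2:**
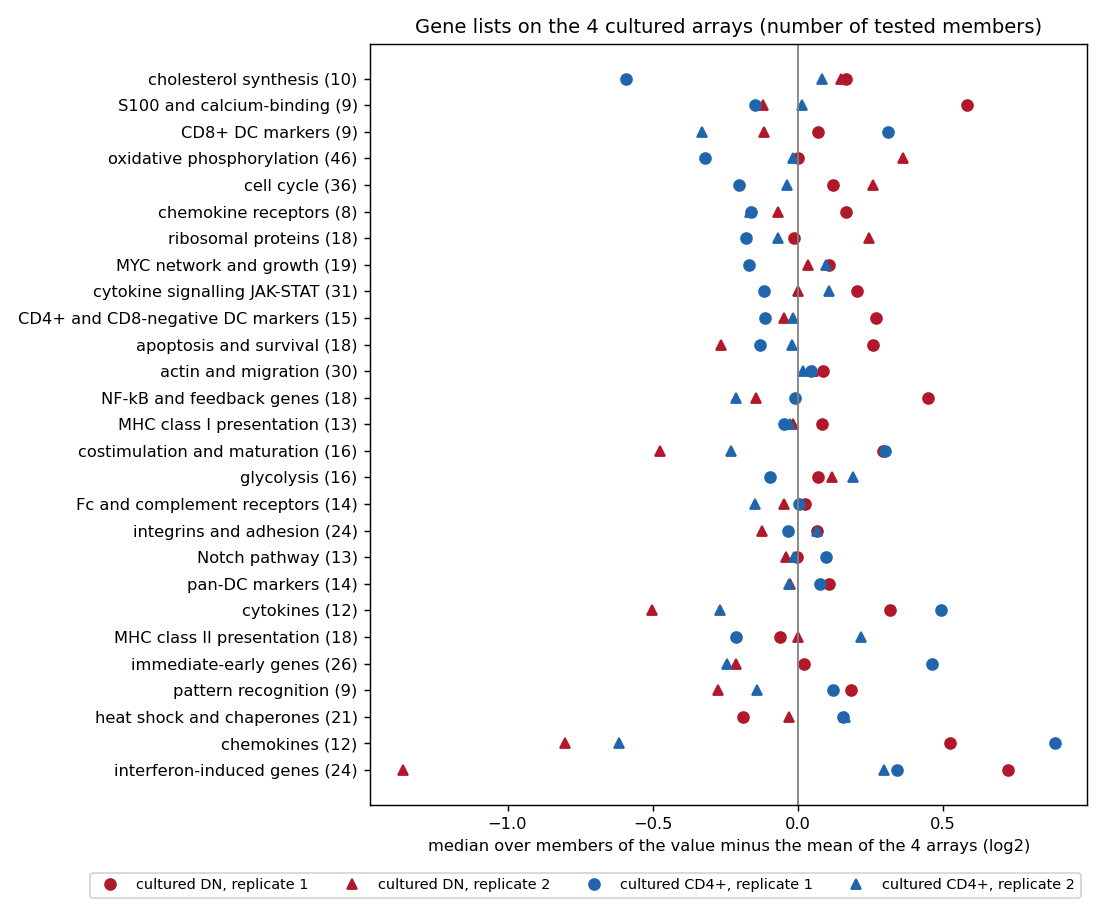
For each gene list with at least 8 tested members, apart from the marker lists of other cells, the median over members of the value minus the mean of the 4 cultured arrays, on the log2 scale, with DN arrays in red and CD4+ arrays in blue, circles for replicate 1 and triangles for replicate 2. The interferon-induced genes reach from -1.36 on DN replicate 2 to 0.73 on DN replicate 1, and cholesterol synthesis is lowest on CD4+ replicate 1, at -0.59.

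Of the transcripts that mark the dendritic cell subsets, 0 were called after culture. Cd24a, a surface sialoglycoprotein typical of CD8+ and a part of DN cells, had 559.9 and 743 in cultured DN cells, against 529 and 379 in cultured CD4+ cells, a difference of 0.52 ± 0.28 (SE). At isolation it had 712 and 728 in DN cells, against 164 and 219 in CD4+ cells, a difference of 1.90 ± 0.28 (SE, unadjusted p = 2.99e-05, adjusted p = 0.184). Cd24a rose over the culture in CD4+ cells (log2 1.22 ± 0.28, adjusted p = 0.0141), and in DN cells the value was -0.16 ± 0.28 (adjusted p = 0.747). The difference between the cultured and the fresh comparison was -1.38 ± 0.40 (SE, unadjusted p = 0.00523, adjusted p = 0.999).

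Irf8, the transcription factor of CD8+ and plasmacytoid dendritic cells, had 1048.5 and 394 in cultured DN cells and 736 and 171 in cultured CD4+ cells, with overlapping arrays, where the fresh values were 1637 and 1124 in DN cells and 447.5 and 243 in CD4+ cells. Irf4, the factor of CD8-negative dendritic cells, had 2694.5 and 1251 in DN cells and 1362 and 1636 in CD4+ cells, again overlapping. Sirpa, an inhibitory receptor of CD8-negative dendritic cells, had 341 and 319 in DN cells and 104 and 475 in CD4+ cells. Its difference of 0.54 ± 0.69 (SE) turned to -0.52 without CD4+ replicate 1, and its other tested probe sets gave -0.39 and 1.44. Cadm1, an adhesion molecule of cross-presenting cells, had 213 and 255.5 in DN cells and 258 and 84.1 in CD4+ cells. The 9 tested CD8+ markers had a median difference of 0.35 and the 15 CD8-negative ones 0.16. Both DN arrays lay above for 1 (11.1%) and 3 (20.0%) members and below for 0 and 1 (6.67%). Over all genes 12.7% lay above and 8.95% below. The CD8+ marker median was -0.14 against CD4+ replicate 1 and 0.31 against CD4+ replicate 2, so its sign turned, and the CD8-negative one was 0.18 and 0.06.

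Among the general dendritic cell genes, Flt3, the receptor for the growth factor that drives dendritic cell development, had 1283 and 936 in DN cells and 848 and 613 in CD4+ cells, and Csf2ra, the GM-CSF receptor alpha chain, 455 and 520.4 in DN cells and 759 and 624 in CD4+ cells. Both separated the subsets, in opposite directions, by 0.60 ± 0.29 and -0.50 ± 0.27 (SE). On the other tested probe set of Flt3 the arrays overlapped, with a difference of 0.12. Of pattern recognition genes, Ifih1, the RNA sensor MDA5, had 917 and 316 in DN cells and 1385 and 794 in CD4+ cells, and Ly86, the partner of the TLR4 relative RP105, 401 and 401 in DN cells and 464 and 563 in CD4+ cells. Rfng, a glycosyltransferase that modifies Notch, had 139 and 198 in DN cells and 431 and 232 in CD4+ cells.

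Adhesion, cytoskeleton and survival genes had list medians between -0.04 and 0.13. Itgb7, an integrin beta chain for homing to mucosa, had 877 and 1254 in DN cells and 705 and 732 in CD4+ cells, while Cd53, a tetraspanin of leukocytes, had 1750.0 and 2346 in DN cells and 2676 and 3819.5 in CD4+ cells. Myh9, the heavy chain of non-muscle myosin, had 1389 and 1573 in DN cells and 639 and 1149.6 in CD4+ cells, and Lsp1, an actin-binding protein of leukocytes, 3755 and 3015.5 in DN cells and 2494 and 2124 in CD4+ cells. Apaf1, the scaffold of the apoptosome, had 552 and 506 in DN cells and 369 and 362 in CD4+ cells, a difference of 0.53 ± 0.28 (SE). In the list of S100 and calcium-binding genes, whose median was 0.35, S100a10, a calcium-binding-family protein, had 636 and 337 in DN cells and 239 and 351 in CD4+ cells, and Anxa1, an annexin that dampens inflammation, 280.1 and 159 in DN cells and 95.4 and 197 in CD4+ cells. The arrays overlapped for these last 2. Of the 9 tested members of that list, 2 (22.2%) had both DN arrays above and 0 below, where 12.7% and 8.95% of all genes did so. Against the mean of the 4 arrays, the list's median was 0.58 on DN replicate 1 and -0.12 on DN replicate 2. Taken within the replicate numbers, its median difference was 0.62 for number 1 and -0.08 for number 2, so its sign turned.

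The cultured comparison was then set beside the one at isolation, with which it shares no array. Between fresh DN and fresh CD4+ cells 0 probe sets (0%) were called, the smallest adjusted p was 0.184 and 81 (1.32%) had an unadjusted p under 0.05. The correlation of the differences in the 2 states over the 6159 probe sets was -0.05 (Pearson r) and -0.10 (Spearman rho), a description over probe sets, which are not independent. Both DN arrays lay above both CD4+ arrays in both states for 167 probe sets (2.71%) and below in both for 91 (1.48%). At isolation, whatever their order in culture, they lay above for 1259 probe sets (20.4%) and below for 1092 (17.7%). They were above when fresh and below when cultured for 160 (2.60%), and below when fresh and above when cultured for 118 (1.92%). The test of the difference between the cultured and the fresh comparison called 0 probe sets (0%), with a smallest adjusted p of 0.999 and 127 (2.06%) at an unadjusted p under 0.05.

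By the lowest p of that test, 2210010C04Rik, Psmd1 and Zfp94 had the higher DN-minus-CD4+ difference in culture, and Plk2, Cd24a and Ifrd1 the lower one. 2210010C04Rik had 215 and 158 in fresh DN cells and 392 and 455 in fresh CD4+ cells, so its order turned over, with a difference of differences of 2.87 ± 0.59 (SE, unadjusted p = 0.000458, adjusted p = 0.999). Zfp94, a zinc finger protein, is no measured difference, since it read 174 and 76.3 in cultured DN cells and -484 and -172 in cultured CD4+ cells, the last being far below 0. Ifrd1, a transcriptional co-regulator, had 913 and 789 in cultured DN cells and 1555 and 821.5 in cultured CD4+ cells, against 208 and 288 in fresh DN cells and 94.2 and 105 in fresh CD4+ cells. It rose over the culture by 1.78 ± 0.35 on the log2 scale in DN cells (adjusted p = 0.0107) and by 3.43 ± 0.35 in CD4+ cells (adjusted p = 0.000214). The difference between these was -1.65 ± 0.50 (SE, unadjusted p = 0.00666).

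**Figure D3:**
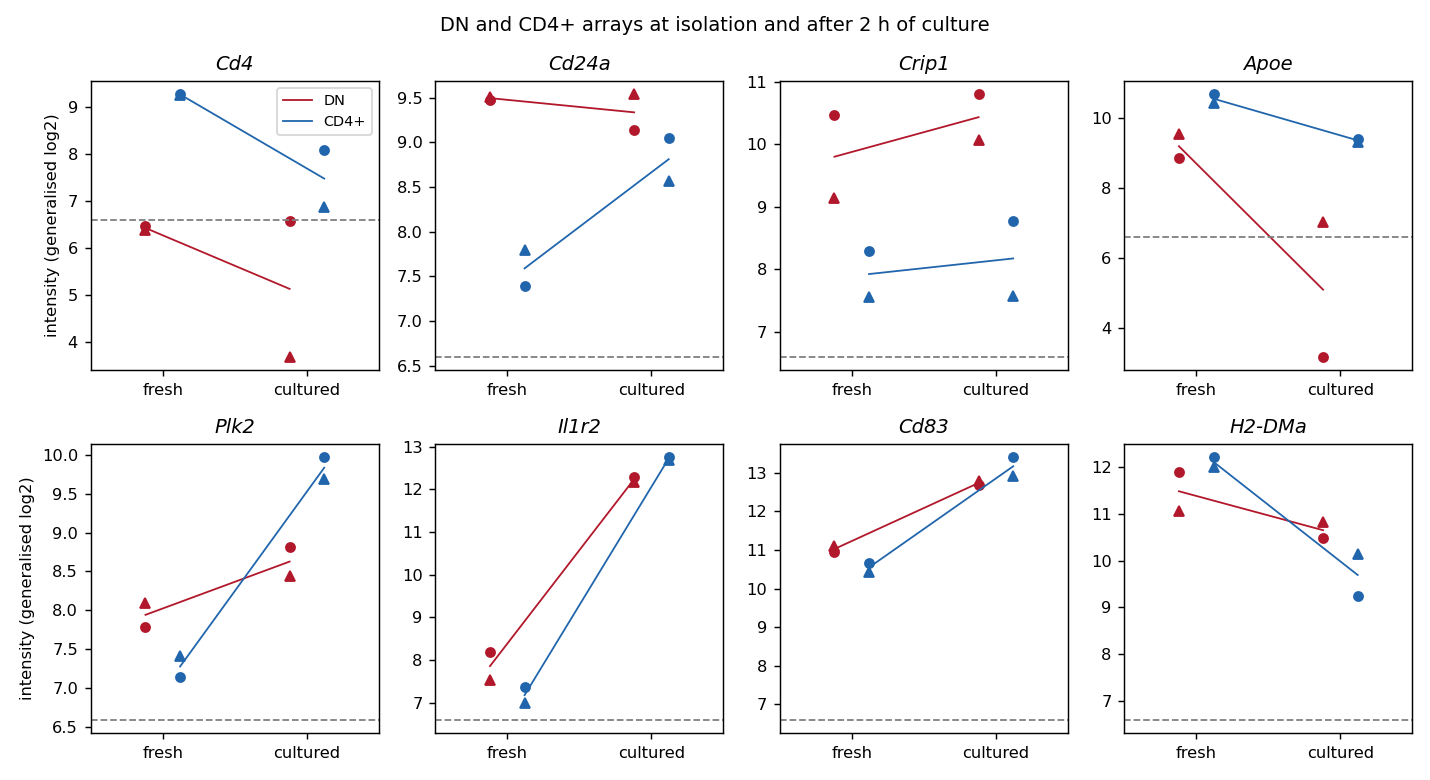
Intensity on the generalised log2 scale of 8 genes at isolation and after 2 h of culture, DN in red and CD4+ in blue, with circles for replicate 1, triangles for replicate 2, lines through the group means and a dashed line at the detection floor, each panel on its own axis that does not start at 0. Cd4 and Apoe are lower and Crip1 is higher in DN cells in both states. The order of Plk2, Il1r2, Cd83 and H2-DMa turns over on the probe sets shown.

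The 2 culture responses behind that test share their cultured arrays with the main comparison, so they are given side by side. In DN cells 610 probe sets (9.90%) were called between cultured and fresh arrays, 259 higher (4.21%) and 351 lower (5.70%). In CD4+ cells 1133 (18.4%) were, 464 higher (7.53%) and 669 lower (10.9%). Of those higher, 212 were called in both subsets, which is 81.9% of the DN list and 45.7% of the CD4+ list, and of those lower 280 were, which is 79.8% and 41.9%. In 0 cases was a probe set called in opposite directions. The longer CD4+ list does not by itself show a stronger response, since the difference between the responses called 0 probe sets. Nampt and Spic rose in both subsets, while Plk2, Cd24a and Mmp12 passed the test in CD4+ cells alone, with a difference between the subsets for Mmp12 of -1.32 ± 0.58 (SE, adjusted p = 0.999).

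Markers of other cells that the sorts might contain were summed over 11 lists, from T cells to basophils, with plasmacytoid dendritic cells among them. The sums of the DN and CD4+ arrays overlapped for 9 lists. Of 74 tested entries 4 had both DN arrays above and 7 below, with 0 called. Over all genes the shares were 12.7% above and 8.95% below. The monocyte and macrophage list, which holds Spic, summed to 4195 and 4716 in DN cells and 4663 and 6733 in CD4+ cells. Of its 16 tested members only Spic and Lyz2 (12.5%) had both DN arrays below, 0 had them above and 14 overlapped. Lyz2, lysozyme, had 319 and 101 in DN cells and 329 and 387 in CD4+ cells. The part of monocytes and macrophages in the lower Spic, Apoe and Mmp12 of DN cells was not tested. The neutrophil list was lower in DN cells, at 5793 and 5199 against 8005 and 6895 in CD4+ cells over 5 members, and most of that was Il1r2. The platelet list had 2 tested members. Its Vwf was under the floor on all 4 arrays, and Gp9, a platelet glycoprotein, had 248 and 152 in DN cells and 148.5 and 25 in CD4+ cells. A further 79 marker genes, among them Cd3e, Ngp, Marco and Col3a1, failed the filter on low values, and 93 of their 103 probe sets were under the floor on all 4 cultured arrays.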

How the data were processed

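RNA of 12 samples of sorted mouse spleen dendritic cells was hybridised to oligonucleotide arrays, 2 per group. The deposited intensities are Average Difference values to which the authors applied global scaling, per the labels; software is not given in the sources used here. An intensity x was transformed to the log2 of 0.5 times the sum of x and the root of x² + c², called generalised log2, with c = 45.69, the median noise of the arrays. The floor was 91.37 (2 times c). Of 12488 probe sets, 66 controls were left out, and 6159 above the floor on at least 2 of 12 arrays were tested. Of 12422, 10833 had 1 gene symbol, 396 several and 1193 none, and only the first were named. A gene was represented by its probe set of highest mean (4735 genes, 666 of them with several).

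limma 3.58.1 in R 4.3.3 fitted 1 mean per group over all 12 arrays (6 residual and a median of 5.09 prior degrees of freedom; eBayes with trend, robust; Benjamini-Hochberg over 6159). Figures used Python 3.11.15 and matplotlib 3.10.9. The fit was tested on simulated data. Precision is limited by the 2 arrays per group. Where a group was under the floor on both arrays, "at least N-fold" sets the brighter group's mean against the higher of the floor and the dim value per array. Named genes were the 12 higher and 12 lower of lowest unadjusted p with separated arrays and a brighter group above the floor, 7 sort and lineage genes, the 2 of lowest p in each of 38 lists, and the 3 of lowest p in each direction for the difference between states. List genes without 2 arrays above the floor in a group, and most markers of other cells, are given as counts only. The members and lists were chosen with earlier results of these data known. Alternatives were another offset, floor, filter, scaling, set of arrays, weights, variance model, block and probe set.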

Additional observations from a re-analysis of the deposited data

Results flagged for a closer look

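For 9 of the named genes, each on the probe set that represents it, both DN arrays lay on one side of both CD4+ arrays at isolation and on the other side after culture. On the other tested probe sets of Il1r2, Lsp1, Myh9, H2-DMa and 2210010C04Rik the cultured arrays overlapped, so these did not turn. That of Cd83 did turn. The difference between the 2 comparisons was tested by the interaction, and its adjusted p was 0.999 for each of them. Over all 6159 probe sets such a turn occurred for 160 (2.60%) downwards and 118 (1.92%) upwards. In the downward direction, DN minus CD4+ differed between the states by -1.87 for Plk2, -1.17 for Il1r2 and -0.91 for Cd83 on the log2 scale. Upwards, the values were 2.87 for 2210010C04Rik, 1.58 for H2-DMa, 1.43 for Baz2a, 1.14 for Tnip1, 1.03 for Myh9 and 0.86 for Lsp1. The unadjusted p was 0.000458 for 2210010C04Rik, 0.00086 for Plk2, 0.0124 for Baz2a, 0.0159 for H2-DMa and 0.0273 for Cd83, and between 0.0431 and 0.0919 for the other 4. With 2 arrays per group, no group was large enough for a test of single outlying arrays.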

How the results depend on the processing

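The count of 0 probe sets called between cultured DN and cultured CD4+ cells was also 0 in 20 of 24 alternatives. With values under the floor set to it, 1 was called (Apoe, adjusted p = 0.018). Leaving out 1 array gave 0 to 199 calls: 199 (185 higher, 14 lower in DN) without CD4+ replicate 2, where CD4+ replicate 1 alone stands for its group, and 4 without DN replicate 2 (Apoe, Cxcl9 and, named after their values were seen, Stub1 and Man2c1). Of the 185, 167 were under the floor and 109 below 0 on CD4+ replicate 1, and 64 had both DN arrays above CD4+ replicate 2 as well. With the arrays of highest Gapdh ratio (cultured DN 1, cultured CD4+ 1 and fresh CD8+ 1) left out, 3 were called (Ifit2, Ifi47 and Sprr2i, named for the same reason), each subset then having 1 array. The difference between states called 0 to 72 without single arrays (72 without cultured CD4+ replicate 2, 1 without DN replicate 2) and 2 without those 3. The fresh comparison called 15 in a fit of its own groups, 1 with array weights and 2 without the 3 arrays. The culture response called 90 to 966 in DN cells and 306 to 2115 in CD4+ cells without single arrays. It called 1178 in DN and 254 in CD4+ cells in a fit of the groups compared, and 1172 in DN and 717 in CD4+ cells with array weights.

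The shared numbers Expt #1 and Expt #2 are not stated to mark a batch, and deviations of same-numbered arrays correlated at 0.34 between cultured DN and CD4+ cells and at 0.106 to 0.444 over all pairs of groups. With the replicate block, 0 probe sets were called between cultured DN and CD4+ cells (smallest adjusted p 0.106, 339 at an unadjusted p under 0.05), and the culture response called 1039 in DN and 1786 in CD4+ cells. Taken within replicate numbers, an alternative added after the data were seen, the interferon list's median was 0.40 for number 1 and -1.50 for number 2, so its direction turned.

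Of 1977 values of named genes under alternatives, 1941 kept their direction and side of the threshold, 16 passed it and 20 changed sign. Many of these alternatives could move the p-value of a cultured difference but not the difference itself. These were leaving out a single fresh or CD8+ array, fitting fewer groups, array weights, the variance model and the block. The median cultured difference over probe sets stayed at 0.0195 in each of them, so the 1941 was partly fixed in advance. Leaving out a single cultured DN or CD4+ array moved the difference by over 1.5 times, or turned it, for 49 of 76 genes. The sign changes were all in differences that had not passed. Without single cultured arrays, the lowest and highest values were -0.14 and 1.39 for Cadm1, -0.23 and 1.24 for Cd8a, -0.87 and 0.047 for Ifrd1, -1.37 and 0.14 for Il1rn, -0.26 and 0.85 for Irf4, -0.19 and 1.89 for Irf8, -0.77 and 0.48 for Itgax, -0.056 and 1.81 for Pgk1, -0.52 and 1.61 for Sirpa, and -2.60 and 0.17 for Tnf. Without the 3 arrays named above they were -0.30 for Anxa1, -0.39 for Irf4, -0.35 for Pgk1, -0.057 for S100a10 and -0.57 for Sirpa. With the floor the value of Cd8a was 0, and with another probe set 2210010C04Rik gave -0.16, Cd86 0.82, Erp29 -0.20 and Sirpa -0.39. The cause was not tested.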
